A study of Mus musculus with 6 samples.

Results

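Transcripts of the complement system were examined in the retina of prCAD -/- mice. The gene deleted in them, Cdhr1, encodes photoreceptor cadherin, a membrane protein at the base of the outer segments. The genes considered are the 3 subunits of C1q (C1qa, C1qb and C1qc), the central components C3 and C4b, factor B of the alternative pathway (Cfb), and 3 inhibitors: factor I (Cfi), C1 inhibitor (Serping1) and clusterin (Clu). They were measured by all probe sets whose only gene symbol in the platform annotation is one of these 9. The rule found 12 of the 45037 probe sets, for 7 of the 9 genes, and C3 and C4b were not analysed as members here because none of these probe sets carries their symbol alone.

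Retinal RNA was measured on 6 single-colour arrays of the Affymetrix type, 3 of wild type 129 mice and 3 of prCAD mutant mice, all about 4 weeks old. Each array held RNA of retinas pooled from 3 mice, so replicates are pools and not single animals, and the labels name no strain for the mutant mice. The submitters call the mutant a model of retinal degeneration, and the comparison asks which transcripts differ in it. All values are log2 expression values from RMA, and the median over all probe sets, 4.76, is used as a mark below which background can limit a difference.

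Complement is a chain of plasma proteins that tags surfaces for removal. C1q recognises a surface and starts the classical pathway, in which C4 and C2 are cut. C3 is then cut and deposited, factor B amplifies that step in the alternative pathway, and the terminal components form a pore. C1 inhibitor blocks the proteases of C1, factor I inactivates deposited C3 and C4 fragments, and clusterin binds the terminal complex. In the healthy retina C1q is known mainly from microglia, and complement transcripts are also made by glia and by the retinal pigment epithelium.

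The readings of the targeted gene matched the labels, and rod markers are given beside them. Cdhr1 read 11.32, 11.36 and 10.98 in wild type and 3.94, 4.20 and 4.34 in mutant replicates 1, 2 and 3. The 5 measured rod photoreceptor markers (Sag, Gnat1, Pde6b, Nrl and Crx) had array means from 11.94 to 12.10 in wild type and from 11.93 to 12.10 in mutant retina. Singly they differed in both directions. Sag was 0.26 higher (SE 0.09), while Pde6b differed by -0.245 (SE 0.12), Nrl by -0.19 (SE 0.11), Gnat1 by -0.05 and Crx by -0.006. Array medians lay between 4.74 and 4.79. Over the array 5 of 45037 probe sets passed (limma, Benjamini-Hochberg adjusted p under 0.05), which is 0.0111%.

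Every one of the 12 complement probe sets had a higher mean in mutant retina, as did 53.6% of all probe sets, by 0.07 to 1.18, with a median of 0.51 against 0.01 over all probe sets. On 10 of the 12 every mutant array lay above every wild type array, where 4.73% of all probe sets did so. The 12 are not independent, since 4 measure Clu and 3 measure C1qb. With each gene at its brightest probe set, 5 of 7 genes lay higher without overlap, where 5.89% of all genes did. In limma 0 of the 12 passed after adjustment over all probe sets, the lowest adjusted p being 0.883 for C1qc, while 10 had an unadjusted p under 0.05 on the higher side, where 1.68% of all probe sets did. At 1 probe set a gene 5 of 7 genes had such a p, where 2.33% of all genes did. Within pairs of arrays that share a replicate number 11 of the 12 were higher in the mutant array of all 3 pairs, where 17.0% of all probe sets were. For the 10 without overlap this follows from the lack of overlap and adds nothing to it. With the replicate number as a block 0 of the 12 passed as well, where 0.0333% of all probe sets did, and the lowest adjusted p was 0.0969, for a Clu probe set. Without both arrays numbered 3, a choice made after the data were seen, 9 of the 12 had an unadjusted p under 0.05 on the higher side, where 3.05% of all probe sets did. None of these differences is therefore a call across the array, and the values below describe a common direction of genes that were chosen with earlier results of these data known. An exact two-sided permutation test of 3 arrays against 3 cannot go below p = 0.10, and the 10 probe sets without overlap reach that value.

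**Figure D1:**
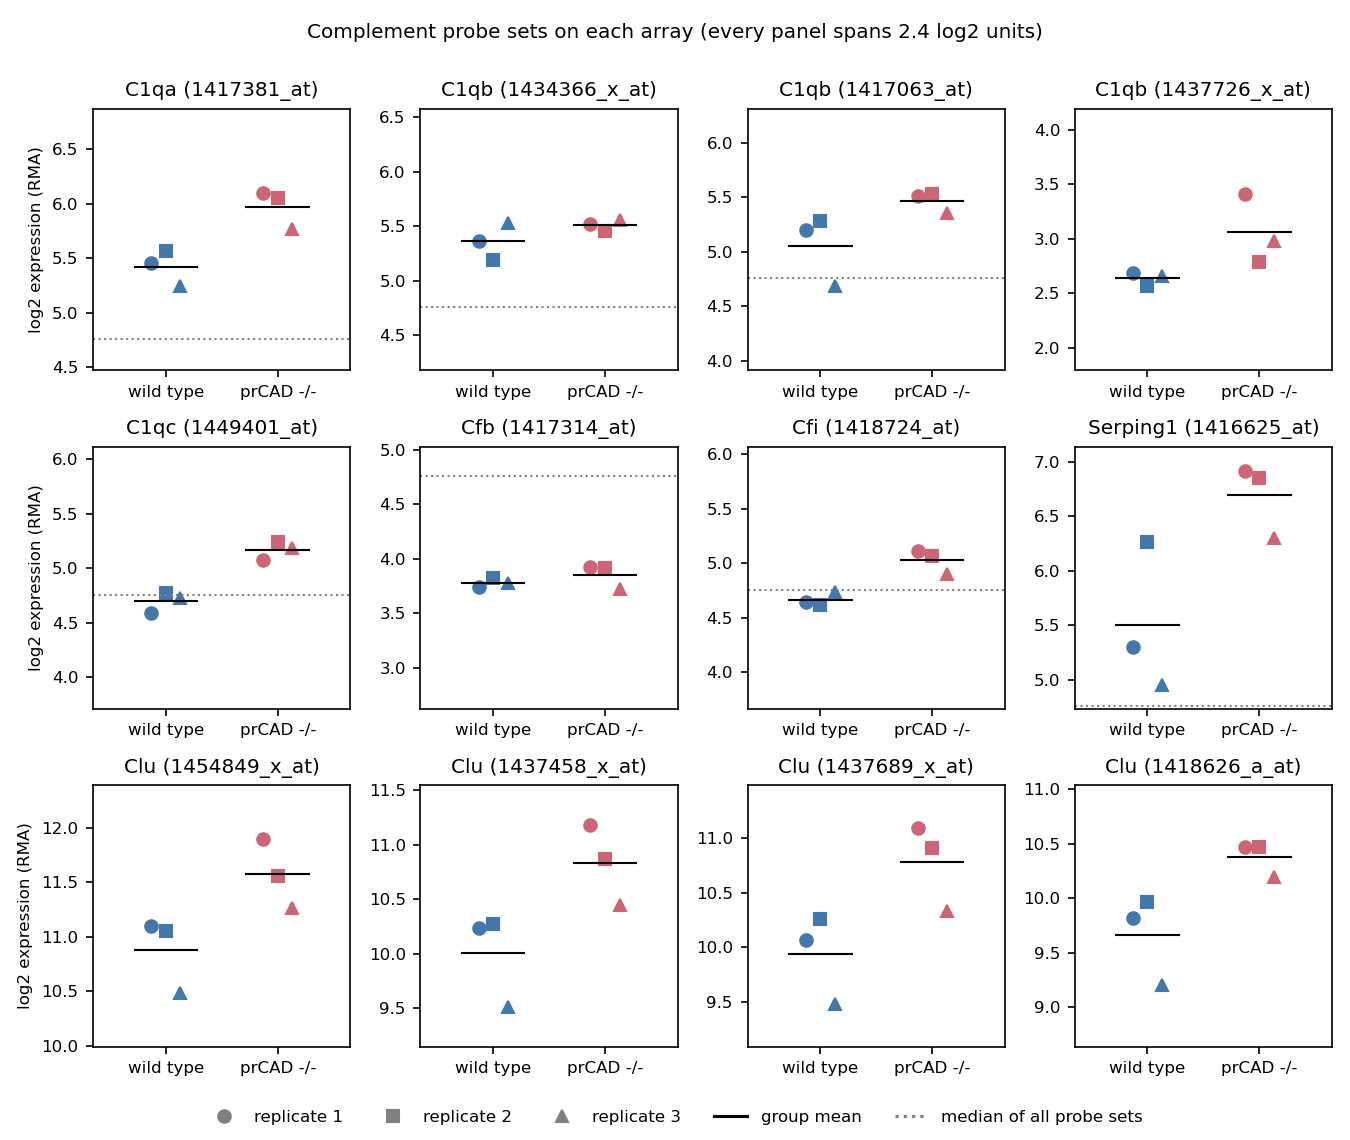
Log2 expression (y axis) of the 12 complement probe sets in 3 wild type and 3 prCAD -/- arrays, with a marker for each replicate, black bars for group means and a dotted line at 4.76, the median of all probe sets. Mutant arrays lie above all wild type arrays in 10 panels; the exceptions are Cfb and the C1qb probe set 1434366_x_at.

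The 3 genes of C1q, whose products assemble into one recognition molecule, were all higher in mutant retina, but C1qb by different amounts at its 3 probe sets. They stand side by side in the genome, with 0 protein-coding genes between C1qb and C1qc and 0 between C1qc and C1qa in the order of GRCm38.p6. C1qa, the A chain, read 5.46, 5.57 and 5.24 in wild type replicates 1, 2 and 3 and 6.10, 6.06 and 5.77 in the mutant ones. The groups did not overlap, with 0.20 between the highest wild type and the lowest mutant array, and the third array was the lowest of both groups. The difference was 0.55 (SE 0.13, 95% interval 0.24 to 0.87; limma, adjusted p = 0.9999), or 1.47-fold.

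C1qc, the C chain, read 4.59, 4.77 and 4.73 in wild type and 5.07, 5.24 and 5.19 in mutant retina. This was the most even of the complement differences, at 0.48, 0.47 and 0.46 within the pairs, and the groups lay 0.30 apart. The fitted difference was 0.47 (SE 0.10, interval 0.24 to 0.70; limma, adjusted p = 0.883). The wild type mean of 4.70 ± 0.10 (SD, n = 3) lies below 4.76, so background can limit this difference.

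C1qb, the B chain, has 3 probe sets. The brightest, 1434366_x_at, read 5.36, 5.19 and 5.53 in wild type and 5.52, 5.46 and 5.56 in mutant retina. Here the groups overlapped, since wild type replicate 3 lay above mutant replicates 1 and 2, and the difference was 0.15 (SE 0.11, interval -0.11 to 0.41; limma, adjusted p = 0.9999). It was 0.0663 without wild type replicate 2 and 0.235 without wild type replicate 3. At 1417063_at, with 5.20, 5.28 and 4.69 against 5.51, 5.53 and 5.36, the groups did not overlap and the difference was 0.41 (SE 0.17). That value depends on wild type replicate 3, the lowest array, and was 0.23 without it. The third probe set, 1437726_x_at, lay below 4.76 on all arrays, at 2.57 to 2.68 in wild type and 2.79 to 3.41 in mutant retina. Its difference of 0.42 (SE 0.16) was 0.245 without mutant replicate 1, its highest array. Probe sets ending in _x_at can bind other transcripts as well.

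The promoters of C1qb and C1qc are shown because the genes are neighbours whose products form one molecule. Of the 9 genes, 3 (C1qb, C1qc and C3) matched the RefSeq promoter table. The promoter of C3, whose symbol no probe set carries alone, is not shown. The sequences below are the 250 bases before the start, read along the minus strand of chromosome 4 in GRCm38.p6, at chr4:136886201-136886450 for C1qb and chr4:136892915-136893164 for C1qc. Capitals mark matches to a motif.
C1qb: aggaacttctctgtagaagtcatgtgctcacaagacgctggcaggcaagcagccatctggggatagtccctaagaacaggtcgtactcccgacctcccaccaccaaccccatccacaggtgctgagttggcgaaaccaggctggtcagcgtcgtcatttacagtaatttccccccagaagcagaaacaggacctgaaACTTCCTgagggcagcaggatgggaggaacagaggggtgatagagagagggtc
C1qc: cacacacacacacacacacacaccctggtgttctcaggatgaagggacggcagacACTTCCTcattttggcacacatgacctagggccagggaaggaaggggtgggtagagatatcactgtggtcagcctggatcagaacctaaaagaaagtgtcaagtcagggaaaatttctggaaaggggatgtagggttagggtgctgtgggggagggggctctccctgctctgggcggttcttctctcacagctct
The motifs searched on both strands were TTCNNNGAA for STAT factors, GGG, any 2 bases and TTTCC for NF-kappaB, TTGCNNAA for C/EBP factors, GAAA, any 2 bases and GAAA for interferon response elements, and AGGAAGT, a core word of ETS factors such as the myeloid factor PU.1. None of the first 4 has a match in the windows of C1qb and C1qc, while that of C3 holds the C/EBP word once, 45 to 38 bases before its start. Those 4 words are found in 7.02%, 1.41%, 9.56% and 2.98% of 32851 promoter windows of this length. The ETS word, added after the sequences were seen, matches once in each on the opposite strand, 53 to 47 bases before the start of C1qb and 195 to 189 bases before that of C1qc, and 7.69% of all windows hold it. A match is a word in the sequence and not a measured site.

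Of 15 measured microglia markers that are not complement genes, 14 had a higher mean in mutant retina, against 58.4% of 18193 genes taken at their brightest probe sets. For 3 of them the groups did not overlap, against 5.89% of all genes on the higher side. In limma 0 passed at an adjusted p under 0.05 and 2 had an unadjusted p under 0.05, against 3.42% of all genes in either direction. Their median difference was 0.09, against 0.02 over all genes. Ctss, a lysosomal protease of microglia and macrophages, was 0.85 higher (SE 0.18), more than any C1q probe set, and Csf1r, the receptor on which microglia depend, 0.35 higher (SE 0.12). The markers P2ry12, Aif1, Ptprc, P2ry13, Cd68 and Fcgr3 lay below 4.76 on all arrays. The summed signal of the list ran from 9.08 to 9.16 on the log2 scale in wild type and from 9.33 to 9.46 in mutant arrays. Such a sum is taken over unlogged values, so the brightest markers, here Csf1r and Ctss, weigh most in it. It does not show that the list rose as a whole. The mean of the log2 values, in which each marker weighs the same, ran from 4.685 to 4.778 in wild type and from 4.824 to 4.95 in mutant arrays.

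The mean of C1qa, C1qb and C1qc at their brightest probe sets exceeded the mean of the 15 markers by 0.45, 0.40 and 0.46 in wild type replicates 1, 2 and 3. In the mutant replicates the excess was 0.61, 0.68 and 0.68. The groups did not overlap, and the excess was 0.22 larger in mutant retina, or 0.30 with all probe sets of a gene averaged. The C1q mean itself was 0.39 higher in mutant retina and the marker mean 0.17 higher. Because 6 of the 15 markers lay below 4.76 on all arrays, background can limit the difference of the marker mean and so enlarge the excess. The wild type mean of C1qc, 4.70, also lies below 4.76, so background can limit the C1q difference too and so reduce the excess. Single markers varied, and Ctss was 0.85 higher, more than the C1q mean. In bulk RNA more microglia and more RNA per microglial cell cannot be told apart, and the part that the number of microglia has in the C1q difference was not tested.

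**Figure D2:**
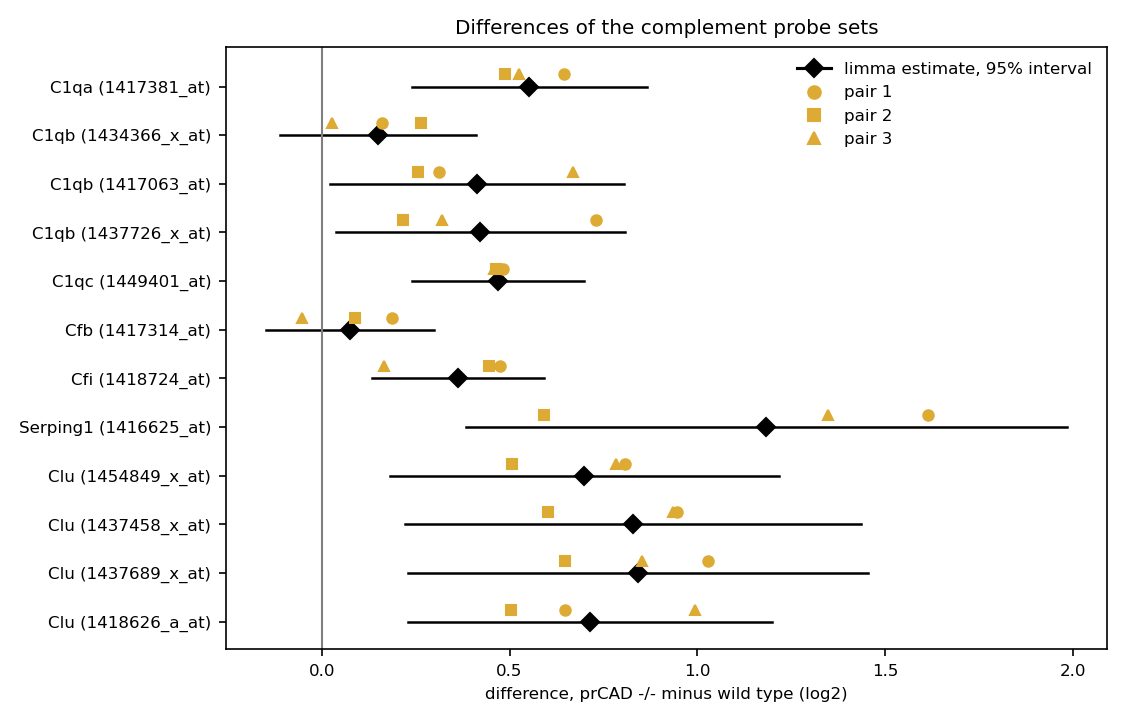
Differences of the 12 complement probe sets between prCAD -/- and wild type retina (x axis, log2), with limma estimates and 95% intervals in black and the 3 pairs of arrays that share a number in yellow. All estimates lie above 0, from 0.07 for Cfb to 1.18 for Serping1, and the intervals of Cfb and of C1qb at 1434366_x_at include 0.

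Among the inhibitors, Serping1 had the largest difference of the 12 probe sets and also the widest spread. The gene encodes C1 inhibitor, which blocks the C1 proteases and also proteases of the contact system. Serping1 read 5.30, 6.26 and 4.96 in wild type and 6.92, 6.85 and 6.30 in mutant retina. Wild type replicate 2 came within 0.04 of mutant replicate 3, so the groups lay barely apart. The difference was 1.18 (SE 0.34, interval 0.38 to 1.98; limma, adjusted p = 0.9999), or 2.27-fold, and 1.61, 0.59 and 1.35 within the pairs. Leaving out single arrays gave 0.91 without wild type replicate 3 and up to 1.56 without wild type replicate 2.

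Cfi, which encodes the protease that inactivates C3b and C4b, read 4.64, 4.62 and 4.74 in wild type and 5.12, 5.06 and 4.90 in mutant retina. The groups did not overlap, and the third pair, at 0.17, had a smaller difference than the other two, at 0.47 and 0.45. The fitted difference was 0.36 (SE 0.10, interval 0.13 to 0.59; limma, adjusted p = 0.9999). All wild type arrays lay below 4.76 and all mutant arrays above it, so background can limit the value.

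Clu, a secreted chaperone that also inhibits the terminal complex and is strongly expressed by glia, was higher at all 4 of its probe sets, by 0.70 to 0.84. At the brightest, 1454849_x_at, it read 11.10, 11.05 and 10.48 in wild type and 11.90, 11.56 and 11.26 in mutant retina. The groups did not overlap at any of the 4, with gaps of 0.07 to 0.23. In both groups replicate 3 was the lowest array at all 4 probe sets.

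At that brightest probe set the difference was 0.70 (SE 0.22, interval 0.18 to 1.22; limma, adjusted p = 0.9999), or 1.62-fold, and 0.81, 0.51 and 0.78 within the pairs. The 3 other probe sets differed by 0.83, 0.84 and 0.72. Only 1418626_a_at has no _x_at suffix, and it read 9.82, 9.96 and 9.20 against 10.47, 10.47 and 10.19. With the replicate block the adjusted p ran from 0.0969 to 0.246 over the 4. Clu lies on the chromosome of Cdhr1, with 373 protein-coding genes between them in GRCm38.p6 order, and a difference that comes from alleles of the mutant strain cannot be told apart from one that comes from the loss of Cdhr1, for Clu as for the other genes.

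Cfb, the only member of the alternative pathway with a probe set, showed the smallest difference. It read 3.74, 3.82 and 3.78 in wild type and 3.92, 3.91 and 3.72 in mutant retina, below 4.76 on all arrays. The groups overlapped, since mutant replicate 3 was the lowest of all 6 arrays. The difference was 0.07 (SE 0.09; limma, adjusted p = 0.9999), with an interval of -0.15 to 0.30 that leaves room for a change of either sign.

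Array replicate 3 of both groups read low for many of these probe sets, 4 of which measure Clu. Wild type replicate 3 was the lowest wild type array for 7 of the 12, where 45.1% of all probe sets had it lowest, and mutant replicate 3 was the lowest mutant array for 9, where 44.4% did. For 7 of the 12, those of C1qa, Serping1 and Clu and 1 of C1qb, both were the lowest of their group, where 28.6% of all probe sets were. With 1 probe set a gene the counts were nearer to the shares of all genes. Wild type replicate 3 was then lowest for 3 of 7 genes, against 53.5% of all genes. Mutant replicate 3 was lowest for 5 of 7, against 54.3%, and both were lowest for 3 of 7, against 36.6%.

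Markers of other cells are given beside Clu and Serping1, and their counts can be read against the 58.4% of all genes that were higher, the 5.89% higher without overlap and the 3.42% with an unadjusted p under 0.05. Of 8 pigment epithelium markers 8 were higher in mutant retina, 7 without overlap, and 0 passed in limma (7 at an unadjusted p under 0.05). Their median difference was 0.96, and the 1 with overlap, Best1, differed by 0.006 (SE 0.10). Their summed signal ran from 8.68 to 10.01 in wild type and from 10.64 to 11.08 in mutant arrays. Wild type replicate 3 was the lowest array. Ttr, which weighs most in the sums of the mutant arrays, read 9.025, 8.321 and 5.683 in wild type replicates 1, 2 and 3. Of these markers Slc6a20a lay below 4.76 on all arrays.

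Of the 3 astrocyte markers 2 were higher, both without overlap. Gfap, the intermediate filament of reactive glia, was 1.60 higher (SE 0.32) and Aldh1l1 0.47 higher (SE 0.16), while S100b differed by -0.08 (SE 0.15). The summed signal ran from 6.98 to 7.59 in wild type and from 7.99 to 8.41 in mutant arrays. Gfap weighs most in the sums of the mutant arrays, so they do not show that the list rose as a whole. Of the 8 Müller glia markers 5 were higher and 2 did so without overlap, Vim by 0.63 (SE 0.24) and Sox9 by 0.11 (SE 0.09), with a summed signal from 12.27 to 12.51 against 12.43 to 12.51. Glul, the glutamine synthetase of Müller cells, differed by -0.08 (SE 0.11).

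Lens markers were higher for 6 of 6 but overlapped for each, with a summed signal from 12.95 to 14.28 in wild type and from 13.81 to 14.44 in mutant arrays. Of 7 vascular and mural markers 5 were higher, 2 without overlap, and 1 was lower without overlap, and their summed signal ran from 9.30 to 9.43 in wild type and from 9.16 to 9.62 in mutant arrays. The 3 blood markers, Hba-a1, Alas2 and Slc4a1, lay below 4.76 on all arrays, and so did Alb and Serpina1b of 4 liver and plasma markers. Their summed signals ran from 5.23 to 5.43 against 5.30 to 5.37 for blood and from 6.58 to 6.76 against 6.65 to 6.84 for liver and plasma. The part of these cell types in the differences of Clu, Serping1 and Cfi was not tested.

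**Figure D3:**
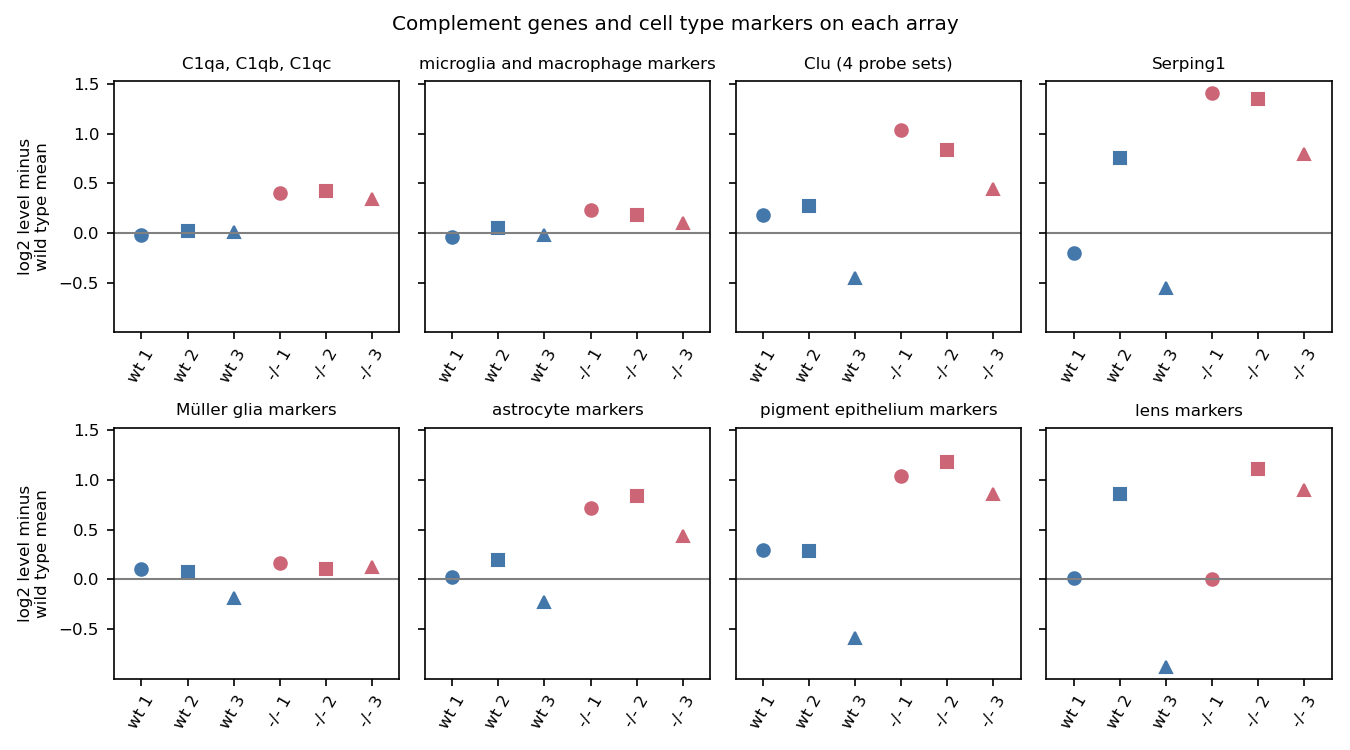
Log2 level on each array minus the wild type mean (y axis) for C1q (mean of 3 genes), Clu (mean of 4 probe sets), Serping1 and the means of 5 marker lists, by group and replicate (x axis). C1q lies between 0.34 and 0.42 on mutant arrays and microglia markers between 0.10 and 0.23. Clu, Serping1 and the Müller glia, astrocyte, pigment epithelium and lens lists are lowest on wild type replicate 3.

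The further complement genes had a median difference near that of all genes. Of 50 further complement genes 40 had a probe set of their own, and each was taken at its brightest. None passed in limma (0 of 40 at an adjusted p under 0.05, which 0.0165% of 18193 genes had, and 0 at an unadjusted p under 0.05, which 3.42% had), and 1 had an unadjusted p under 0.05 on the higher side with the replicate block, where 4.88% of all genes did. Means were higher in mutant retina for 28 of the 40, or 70.0%, against 58.4% of all genes, and 2 (C9 and Cpn1) did not overlap, where 5.89% of all genes did not. The median difference was 0.04, against 0.02 over all genes and 0.47 over the 7 genes described above. Of the 40, 25 lay below 4.76 on all arrays, as did 31.7% of all genes, so background can limit most of these differences. Over all 69 probe sets of the 40 genes 0 passed in limma, and 2 had an unadjusted p under 0.05, against 3.02% of all probe sets. These were a second probe set of Cfp, which was higher, and one of Csmd1, a membrane protein with complement control domains, which differed by -0.24 at a level below 4.76.

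In the classical pathway C2, the protease paired with C4, differed by 0.18 (SE 0.13) with overlap. That value was 0.0792 without mutant replicate 1, and another C2 probe set above 4.76 on all arrays differed by -0.04. C1ra and C1s1, the proteases of C1, lay below 4.76 on all arrays. The 8 lectin pathway genes had differences between -0.07 and 0.08. Cfp, or properdin, which stabilises the alternative pathway convertase, differed by 0.10 (SE 0.10) with overlap at the brighter of its probe sets. Its other probe set, also above 4.76 on all arrays, read 5.32, 5.15 and 5.29 in wild type and 5.52, 5.37 and 5.73 in mutant retina. There the groups did not overlap, and the difference was 0.29 (SE 0.12; limma, adjusted p = 0.9999).

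All 6 genes of the terminal pathway lay below 4.76 on all arrays. C9, the pore-forming component, read 4.40, 4.26 and 4.13 in wild type and 4.51, 4.44 and 4.48 in mutant retina, a difference of 0.21 (SE 0.10; limma, adjusted p = 0.9999). Hc, the gene of C5, differed by 0.004 (SE 0.10).

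Of the 8 genes listed as complement receptors 0 had groups without overlap at the brightest probe set. Over all genes 5.89% were higher without overlap and 2.88% lower, so so few genes cannot show a lack of change. C3ar1, the C3a receptor, differed by 0.08 (SE 0.12), C5ar1, the C5a receptor, by -0.07 (SE 0.12), and Itgam, a subunit of complement receptor 3 that microglia carry, by 0.14 (SE 0.12). At these probe sets C3ar1 and Itgam lay below 4.76 on all arrays. Another C3ar1 probe set, of nearly the same level, differed by -0.13 (SE 0.19), and a dimmer one by 0.08 (SE 0.17). The other C5ar1 probe set, below 4.76 on all arrays, was 0.12 higher (SE 0.10), with 0.01 between the groups.

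Of the 14 other regulators Cr1l, the rodent inhibitor Crry on cell surfaces, read 6.415, 6.637 and 6.173 in wild type and 6.633, 6.501 and 6.998 in mutant retina, a difference of 0.30 (SE 0.17; limma, adjusted p = 0.9999). The groups overlapped, and the second pair differed the other way. The difference was 0.158 without mutant replicate 3, 0.184 without wild type replicate 3 and 0.0613 with array weights. Cpn1, a subunit of the carboxypeptidase that trims C3a and C5a, differed by 0.22 (SE 0.11) without overlap, below 4.76. The gap between the groups was 0.01. The other Cpn1 probe set, also below 4.76 on all arrays, differed by -0.009 (SE 0.11) with overlap.

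On the lower side Cd46, a cofactor for factor I, differed by -0.15 (SE 0.09) and Vtn, or vitronectin, an inhibitor of the terminal complex, by -0.12 (SE 0.13). Cd59a, which blocks pore formation, differed by -0.29 (SE 0.32) because wild type replicate 3 read 7.76 and the 5 other arrays 6.50 to 6.67. Without that array Cd59a differed by 0.12. At its other probe set, also above 4.76 on all arrays, Cd59a was 0.18 higher (SE 0.10), with 0.002 between the groups. Cd55, which speeds the decay of convertases, lay near 2.66 in both groups, below 4.76 on all arrays.

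**Figure D4:**
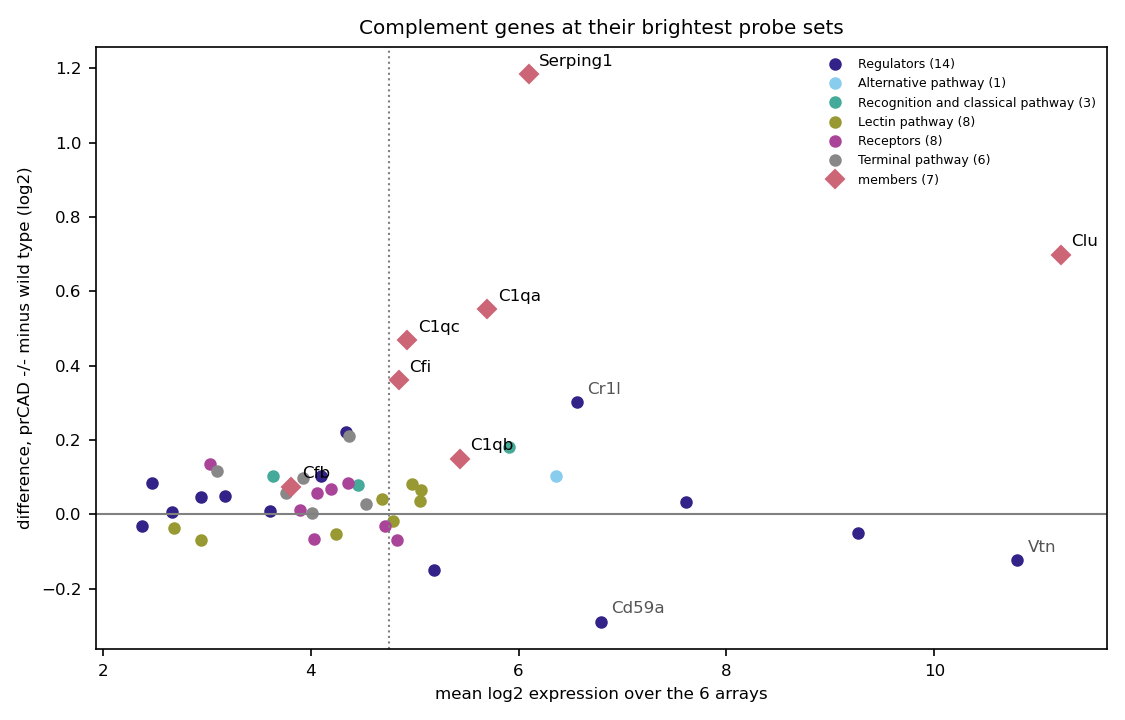
Difference between prCAD -/- and wild type retina (y axis, log2) against mean log2 expression over the 6 arrays (x axis) for the 7 measured genes named at the outset (red diamonds) and 40 further complement genes coloured by pathway, each at its brightest probe set, with a dotted line at 4.76. The further genes lie between -0.29 and 0.30, while Serping1, Clu, C1qa, C1qc and Cfi lie above 0.30.

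The genes whose levels ran most like those of each member over the 6 arrays were found by Pearson's r at the brightest probe set of 18186 other genes. For Clu they were Cd2 (r = 0.998) and Sox9 (r = 0.995), a transcription factor of Müller glia. Serping1 ran with Litaf (0.993), which encodes a lysosomal membrane protein, and Adm (0.989), which encodes adrenomedullin. C1qa ran with Tfpi (0.992) and Atp6v0e (0.990), C1qc with Atxn1 (0.989) and Itga3 (0.988), and C1qb with Mrpl2 (0.990) and Mbd6 (0.985). Cfi ran with Crnde (0.996) and Ddx50 (0.986), and Cfb with Lhx9 (0.991) and Notch2 (0.989). Cd2, Adm, Crnde and Lhx9 had means below 4.76 in both groups, so background can limit their pattern. With 6 arrays in 2 groups such values are common: between 23 and 155 genes reached an r above 0.95 for a given member.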

How the data were processed

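The deposited values are log2 expression from RMA, a step named without a version in the submitters' processing notes. RMA subtracts background, equalises the distributions of arrays and summarises each probe set, so a shift common to all probe sets cannot be seen. Trizol and RNeasy columns served for extraction, per the labels' protocols. Of 45101 probe sets 64 manufacturer controls were left out. The platform annotation gives 1 gene symbol for 34945 probe sets, several for 932 and none for 9160.

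Groups followed the sample titles. The test was limma 3.58.1 (R 4.3.3; lmFit and eBayes) on group alone, adjusted by Benjamini-Hochberg over 45037 probe sets, threshold 0.05, with no filter; it was tested on simulated data. Intervals and SEs are limma's, the former at 95%. Same-numbered arrays deviated together (r = 0.477, 0.469 and 0.563 across probe sets; what a number stands for is unstated), so the numbers were taken as pairs, with a replicate block as an alternative. For lists a gene is its brightest probe set by mean over the arrays. The members and lists were chosen with earlier results of these data known. Text names all member probe sets and, of the further complement genes, the 3 with the smallest p in each direction and a set fixed by role; C1ra, C1s1, Cfp and Csmd1 were named after their values were seen. RefSeq sequences are of GRCm38.p6, whose gene table served otherwise for names and order only. Figures used matplotlib 3.10.9.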

Additional observations from a re-analysis of the deposited data

How the results depend on the processing

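The 12 member probe sets kept their direction in all 161 comparisons with an alternative setting, and 0 passed in any of them. This includes the replicate block, where the lowest adjusted p in limma was 0.0969. A threshold of 0.1 also gave 0. In many of these comparisons the direction could not change. The replicate block, another variance model and fits on fewer probe sets leave each difference as it is. Where groups do not overlap, as for 10 of the 12, leaving out or weighting arrays cannot reverse it. The number with an unadjusted p under 0.05 on the higher side ran from 8 to 10 without single arrays, where 1.25% to 2.82% of all probe sets had one. Leaving out 1 array moved the difference by over 1.5 times for 4 of the 12 member probe sets (the 3 of C1qb, and Cfb at 0.0394 to 0.138) and for 10 of the 12 further genes tried. Over the array the count of 5 became 15 with the replicate block, 25 with array weights, 3 without _x_at and _s_at probe sets, 16 without both arrays numbered 3, and 2 to 9 without single arrays. The excess of C1q over microglia markers, 0.22, was 0.30 (0.298) with all probe sets of a gene averaged and 0.204 to 0.244 without single arrays. Among further complement genes, small differences changed sign. Cd59a was 0.00506 with array weights, 0.121 without both arrays numbered 3 and between -0.507 and 0.121 without single arrays; C5ar1 0.0141 without both and -0.134 to 0.0356 without single arrays; Cd55 -0.0125 with a further quantile normalization and -0.0672 to 0.102 without single arrays; Hc -0.0819 with array weights, -0.0648 without both and -0.055 to 0.0543 without single arrays. The number of arrays limits the precision, and signal near background can limit Cfb, C1qc, Cfi, C1qb at 1437726_x_at and most further complement genes.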

Other observations

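One probe set, 1418021_at, is annotated to both C4 genes, C4a and C4b, and cannot separate them, so it was not counted among the members; it was singled out after its values were seen. C4 is the component that activated C1 cuts, and the C4b gene lies 5 protein-coding genes from Cfb in GRCm38.p6 order. It read 6.538, 6.997 and 6.455 in wild type replicates 1, 2 and 3 and 8.296, 8.025 and 8.122 in the mutant ones. All mutant arrays lay at least 1.03 above all wild type arrays, a wider gap than at any of the 12 member probe sets. The difference was 1.48 (SE 0.16, 95% interval 1.10 to 1.87; limma, adjusted p = 0.139), or 2.80-fold, and 1.76, 1.03 and 1.67 within the pairs. It passed in limma with array weights (adjusted p = 0.0430, difference 1.32) but in none of the other settings tried, in which the adjusted p ran from 0.0717 with the replicate block to 0.750 without wild type replicate 1.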
